A study of Sus scrofa with 15 samples.

Results

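UCP2 and UCP3 are mitochondrial uncoupling proteins, and they were described here in pig backfat through every probe set of the array table whose single platform gene symbol was UCP2 or UCP3. These are 2 of 1260 named genes, with 3 of the 3255 probe sets tested: Ssc.16350.1.S1_at for UCP2, and Ssc.174.1.S1_at and Ssc.174.1.S2_at, called S1 and S2 below, for UCP3. The genes were selected on earlier results of these same animals, in which UCP3 was among those with the smallest p between diets. The diet differences are therefore given as a description, with no test, and support nothing.

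The samples were backfat, the subcutaneous fat over the back, from the inner layer, taken at slaughter from 15 castrated male Iberian pigs. The control group, 7 animals, ate a standard feed of 3130 kcal per kg, and the high-oleic group, 8 animals, ate a feed enriched in oleic acid with 3360 kcal per kg. More control feed was given so that both groups received equal energy and protein. Treatment ran for 24 weeks, from 28 kg live weight to a planned end at 110 kg, and animal ages were not given in the sources used here. Each animal gave 1 Affymetrix porcine array, so replicates are animals, and precision is limited by how few arrays there are.

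Uncoupling proteins sit in the inner mitochondrial membrane, where they can let protons back into the matrix without ATP synthesis. UCP1 does this for heat production in brown fat, and pigs lack a functional UCP1. UCP2 is made in many tissues, with much of it in macrophages and other immune cells, and is tied to the control of reactive oxygen. UCP3 is known mainly from skeletal muscle and brown fat, where fasting and fatty acids raise it through nuclear receptors of the PPAR family. In the pig RefSeq annotation (Sscrofa11.1) both genes lie on chromosome 9, and UCP3 is the next protein-coding gene after UCP2, with 1 long non-coding RNA gene between them.

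The arrays had medians between 6.38 and 6.67 on the log2 scale. High-oleic animal 8 had the highest signal of bacterial transcripts spiked into the RNA, at 7.29 against a median of 5.90 over all animals. Of 20 adipocyte markers, 4 were measured, and LEP, which encodes leptin, had a log2 signal of 11.20 ± 0.73 (SD, n = 7) in control and 11.82 ± 0.51 (SD, n = 8) in high-oleic animals. The deposited table holds only probe sets that varied between arrays, and markers outside it were not analysed here. In bulk tissue, fewer cells of a type and less RNA per cell cannot be told apart.

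Signal for UCP3 was higher in high-oleic than in control animals on both of its probe sets, and the groups overlapped. On S2, the log2 signal in control animals ran from 7.97 to 9.54 with a median of 8.55. In high-oleic animals it ran from 8.998 to 9.77 with a median of 9.47. All 8 high-oleic animals lay above the control median, and 5 of 7 control animals lay below every high-oleic animal. Control animals 1 and 3, at 9.12 and 9.54, lay inside the high-oleic range.

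On S1, the log2 signal of UCP3 ran from 7.98 to 9.20 in control animals, with a median of 8.63. The high-oleic animals ran from 8.85 to 9.93, with a median of 9.32. Here 6 of 7 control animals lay below every high-oleic animal, and only control animal 3 lay inside the high-oleic range. The same animals thus stood at the ends on both probe sets: high-oleic animal 7 was the highest of all 15 and control animal 5 the lowest.

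UCP2 did not separate the diets. Its log2 signal ran from 5.32 to 6.60 in control animals, with a median of 6.14, and from 4.76 to 7.75 in high-oleic animals, with a median of 6.41. The high-oleic animals held both ends of the range, animal 8 at the top and animal 4 at the bottom. Their SD of 0.85 was 1.96 times the control SD of 0.43.

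**Figure D1:**
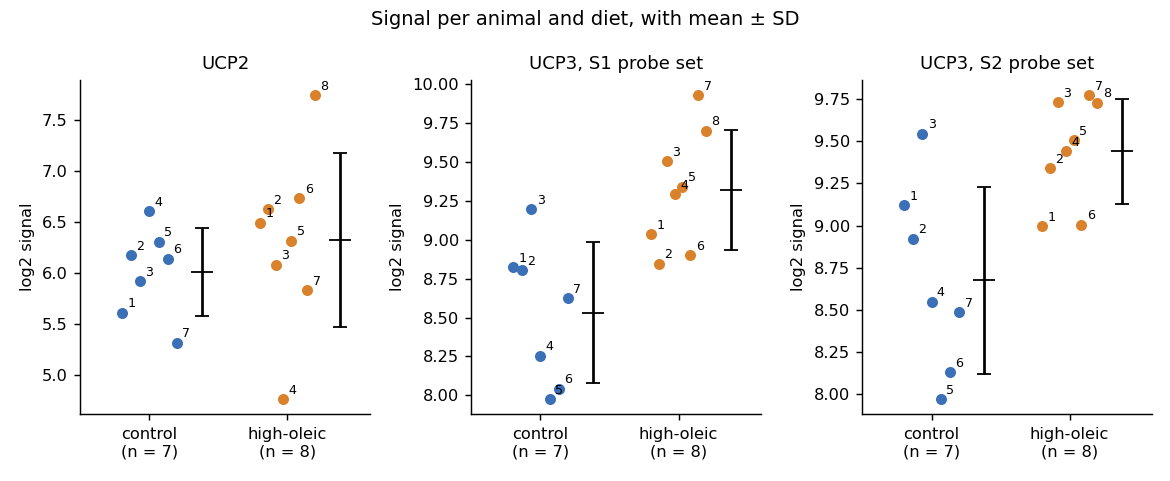
Log2 signal of UCP2 and of the S1 and S2 probe sets of UCP3 in each animal (points, numbered by animal) on the control diet (n = 7) and the high-oleic diet (n = 8), with mean ± SD as bars; the y axes do not start at 0. For UCP3 most control animals lie below the high-oleic animals, while UCP2 runs from 4.76 to 7.75 within the high-oleic group alone.

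As means, UCP3 on S2 stood at 9.44 ± 0.31 (SD, n = 8) on the high-oleic diet and 8.67 ± 0.56 (SD, n = 7) on the control diet. The difference was 0.77 on the log2 scale (95% interval 0.24 to 1.30), or 1.70-fold with an interval of 1.18 to 2.46. On S1 the means were 9.32 ± 0.38 (SD, n = 8) and 8.53 ± 0.45 (SD, n = 7), a difference of 0.79 (95% interval 0.27 to 1.30). UCP2 stood at 6.32 ± 0.85 (SD, n = 8) and 6.01 ± 0.43 (SD, n = 7), a difference of 0.31 (95% interval -0.39 to 1.01). The interval of UCP2 reached from 0.77-fold to 2.02-fold, so these animals show neither a change nor its absence.

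None of the 3 probe sets was called between diets, against a background of 0% of the 3255 probe sets in limma at an adjusted p under 0.05 (Benjamini-Hochberg). At an unadjusted p under 0.05 limma placed 128 of the 3255, or 3.93%, and the exact permutation test placed 0 after adjustment and 136 before it. Complete separation of the diets was also rare in the table, at 0.0307% of the probe sets, and none of the 3 probe sets showed it. A difference of 0.7 or more in favour of the high-oleic diet was reached by 1.57% of the probe sets, S1 and S2 among them, a size chosen after the values were seen.

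Live weight moved with diet, at 104.5 to 116 kg in the high-oleic and 112 to 133 kg in the control animals (difference of means -8.03 kg, two-sided exact permutation p = 0.00435). With live weight in the fit, the UCP3 difference was 0.50 on S2 (95% interval -0.15 to 1.16). On S1 it was 0.62 (95% interval -0.04 to 1.28). Leaving out control animal 5, the heaviest, in that fit as well gave 0.63 on S2 (95% interval -0.13 to 1.39). On S1 that fit gave 0.77 (95% interval 0.01 to 1.52). UCP3 was selected on earlier results that included this contrast, so these intervals are a description and no test. In the 10 animals of 109.5 to 118 kg, 6 control and 4 high-oleic, the difference was 0.82 on S2, 0.89 on S1 and -0.21 for UCP2. The UCP2 difference depended on single animals. Leaving out high-oleic animal 8 gave 0.11, leaving out high-oleic animal 4 gave 0.54, and leaving out control animal 7 gave 0.20.

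The S1 and S2 probe sets of UCP3 ranked the animals almost alike. Over 15 animals Pearson's r was 0.951 (95% interval 0.856 to 0.984, permutation p = 1e-05, the smallest that 100000 permutations can give, adjusted p = 0.00012 over 12 relations). Spearman's rho was 0.950 (permutation p = 1e-05). Without control animals 5 and 6, the 2 farthest from the median, r was 0.911. Within control animals r was 0.958 (exact permutation p = 0.00139) and within high-oleic animals 0.865 (exact permutation p = 0.00662).

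After each probe set was centred on its mean, S1 and S2 differed by an SD of 0.18 over animals, against an SD of 0.58 for S2 itself. The widest gap was in high-oleic animal 2, at 0.36 in favour of S2. Both probe sets are read from the same array, so they share its RNA and hybridisation and are not separate measurements of the animal.

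UCP2 and UCP3 did not rank the animals alike, although the genes are neighbours. Pearson's r between UCP2 and S2 was 0.0623 (95% interval -0.465 to 0.557, permutation p = 0.824, adjusted p = 0.824) and rho was -0.0679 (permutation p = 0.810). With diet means subtracted r was -0.139, within control animals -0.303 (exact permutation p = 0.507) and within high-oleic animals -0.0595 (exact permutation p = 0.886). Without high-oleic animals 8 and 4, the farthest in UCP2, r was -0.0589. High-oleic animal 4 was the lowest of 15 for UCP2 yet 6th for UCP3 on S2, and control animal 4 was 4th for UCP2 and 12th for UCP3. The interval leaves room for a moderate relation in either direction.

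**Figure D2:**
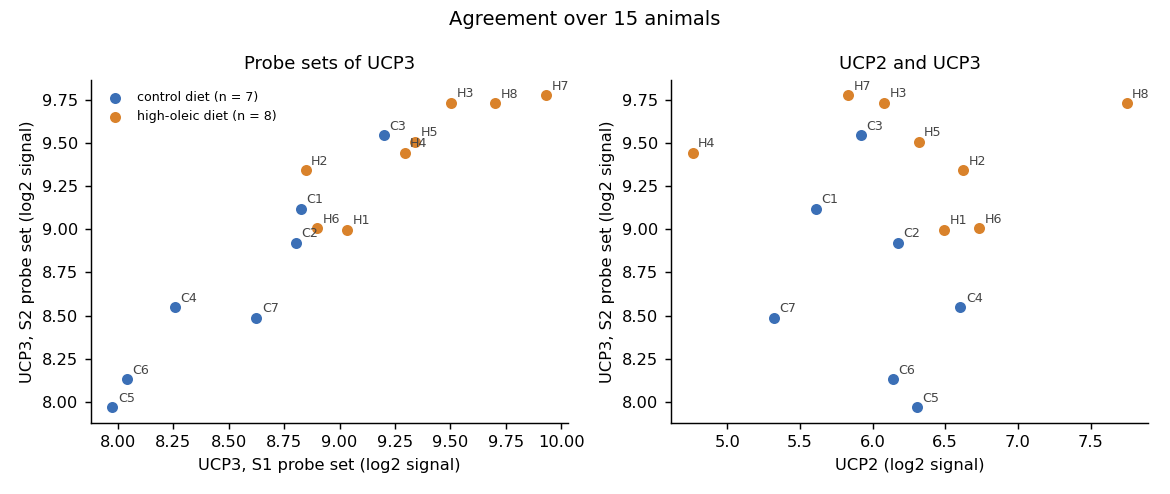
Left, log2 signal of UCP3 on S2 against S1; right, log2 signal of UCP3 on S2 against UCP2; each point is 1 of 15 animals, labelled C (control) or H (high-oleic) with the animal number. The left points follow a line (r = 0.951) and the right points do not (r = 0.0623).

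Within the control group, UCP3 signal was lower in the heavier animals. The 3 lightest, animals 2, 1 and 3 at 112 to 113 kg, had S2 signals of 8.92, 9.12 and 9.54. The 4 heaviest, animals 7, 4, 6 and 5 at 115 to 133 kg, had 8.49, 8.55, 8.13 and 7.97, all below the 3 lightest. Among high-oleic animals the order was not the same: the lightest, animal 1 at 104.5 kg, was lowest at 8.998, and the heaviest, animal 7 at 116 kg, was highest at 9.77.

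Neither gene passed the test for a slope on live weight with diet in the fit. The slope was -0.33 per 10 kg on the log2 scale for UCP3 on S2 (SE 0.24, 95% interval -0.83 to 0.17, limma adjusted p = 0.916). On S1 it was -0.21 (SE 0.24, 95% interval -0.71 to 0.29, adjusted p = 0.919), and for UCP2 it was -0.06 (SE 0.33, 95% interval -0.74 to 0.63, adjusted p = 0.980). The background was 0% of 3255 probe sets called, with 124, or 3.81%, at an unadjusted p under 0.05. Control animal 5 carried much of the UCP3 slope, which without it was -0.03 on S2 and 0.13 on S1. Without that animal the UCP2 slope was -0.66.

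Fitted within each diet, the UCP3 slope on S2 was -0.56 per 10 kg in control animals (95% interval -1.09 to -0.03) and 0.55 in high-oleic animals (95% interval -0.46 to 1.57). The difference between these slopes was 1.12 (95% interval -0.03 to 2.26, limma adjusted p = 0.934). On S1 the slopes were -0.46 (95% interval -0.99 to 0.06) and 0.72 (95% interval -0.29 to 1.72). Their difference was 1.18 (95% interval 0.05 to 2.31, limma adjusted p = 0.934). For UCP2 the slopes ran the other way, 0.23 in control and -1.15 in high-oleic animals. The difference was -1.38 (95% interval -2.97 to 0.20, limma adjusted p = 0.942). Opposite signs in the 2 diets were common, at 48.0% of all probe sets, and limma called 0% of them for a difference of slopes, with 162, or 4.98%, at an unadjusted p under 0.05.

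The control slope of UCP3 on S2 was still negative without animal 5, at -1.66 per 10 kg (95% interval -3.33 to 0.01), over a span of only 112 to 118 kg. The high-oleic slope was 0.65 without animal 7, the heaviest of that group, with a 95% interval of -1.04 to 2.35. Without control animal 5 the difference of slopes was 2.21 on both probe sets.

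**Figure D3:**
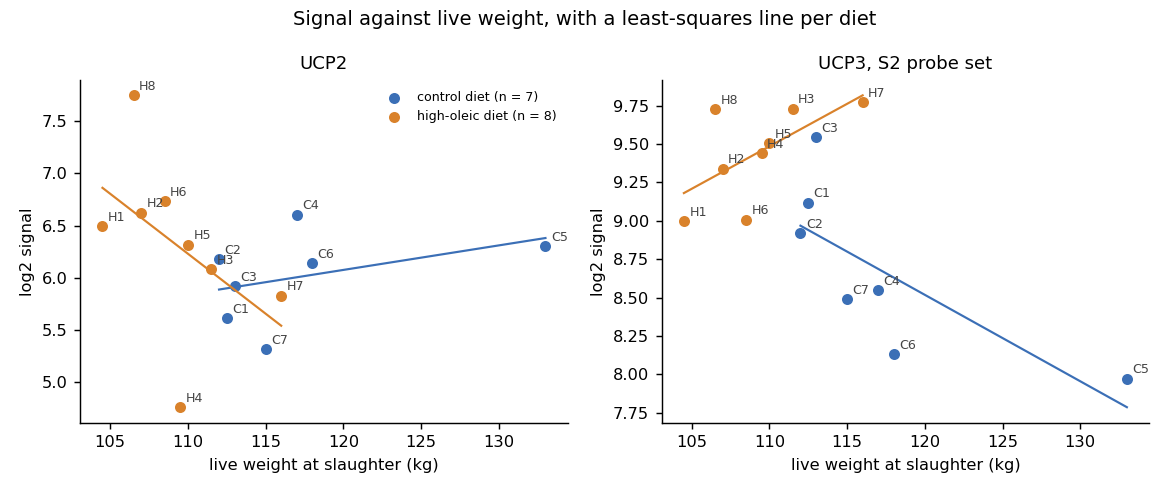
Log2 signal of UCP2 (left) and of UCP3 on S2 (right) against live weight at slaughter in kg, with a least-squares line for each diet; points are animals labelled C (control) or H (high-oleic). UCP3 lies at 8.92 to 9.54 in the 3 lightest control animals and at 7.97 to 8.55 in the 4 heaviest, and the control line leans on animal C5 at 133 kg.

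UCP2 followed the macrophage markers. Of 18 such markers 10 were measured, and with diet means subtracted all 10 correlated positively with UCP2, with a median r of 0.733. The closest were SPI1, the myeloid transcription factor PU.1 (r = 0.891), TYROBP, a signalling adaptor of myeloid receptors (r = 0.880), and LAPTM5, a lysosomal membrane protein of blood cells (r = 0.854). AIF1 and CYBB, the latter a subunit of the phagocyte oxidase, both stood at 0.760. The scavenger and mannose receptors CD163 and MRC1, which mark resident macrophages, were lower at 0.391 and 0.343. Over all 1258 other named genes the median r with UCP2 was 0.163, and 13.4% reached 0.6, against 7 of the 10 macrophage markers.

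The macrophage score, the mean over these 10 genes of the log2 value minus the gene's own mean, ran from -0.22 to 0.14 in control animals and from -1.16 to 1.29 in high-oleic animals. High-oleic animal 8 was highest and animal 4 lowest for the score, as for UCP2. Over 15 animals r between the score and UCP2 was 0.777 (permutation p = 0.00091, adjusted p = 0.00546 over 12 relations) and rho was 0.771 (permutation p = 0.00108). Within control animals r was 0.754 (exact permutation p = 0.0496, adjusted p = 0.204), and within high-oleic animals 0.828 (exact permutation p = 0.00337, adjusted p = 0.0397).

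Without high-oleic animals 8 and 2, the farthest in the score, r was 0.640. Without high-oleic animal 8 alone r was 0.669 and the permutation adjusted p was 0.0557, so the call was lost. Over the other alternatives the adjusted p lay between 0.00222 and 0.0338. Between diets the macrophage score differed by 0.08 in means, beside 0.31 for UCP2. The part of macrophage content in the UCP2 values was not tested.

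No such positive relation was seen for UCP3. With diet means subtracted, all 10 macrophage markers had a negative r with S2. Their median was -0.169, against -0.05 over all 1258 other named genes. The score gave r = -0.117 (95% interval -0.594 to 0.421, permutation p = 0.679, adjusted p = 0.800) and rho = -0.357. Within control animals r was -0.673 (exact permutation p = 0.102, adjusted p = 0.204) and within high-oleic animals -0.272 (exact permutation p = 0.495). Without high-oleic animals 8 and 2, r was -0.545. Whether the relations of UCP2 and UCP3 to the score differ was not tested.

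UCP3 did not follow skeletal muscle markers either, although muscle is its best-known site. Of 31 muscle markers 13 were measured, and their r with S2 ran from -0.173 to 0.102 with diet means subtracted. The muscle score ran from -2.20 to 3.11 in control and from -1.70 to 2.70 in high-oleic animals, a wide range in both. Over 15 animals r with S2 was -0.125 (95% interval -0.599 to 0.414, permutation p = 0.656, adjusted p = 0.800) and rho was -0.0929 (permutation p = 0.743). The diets differed in sign, with r = -0.254 within control animals (exact permutation p = 0.576) and 0.383 within high-oleic animals (exact permutation p = 0.353). With the 2 animals farthest in the score left out, control animal 2 and high-oleic animal 7, r over the rest was -0.374. Leaving out control animal 5 turned it to 0.0675.

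The animals with the highest muscle scores fell at different ends for UCP3. Control animal 2 had the highest score, 3.11, with an S2 signal of 8.92, and high-oleic animal 7 had 2.70 with 9.77. Control animal 5 had 1.996 with 7.97. Mean signal of all 13 muscle markers was lower in high-oleic animals, by a median of -0.35 and with 0 called. Of all 3255 probe sets, 1733 were lower there, and the median difference was -0.03. UCP3 was higher there, but it was selected on earlier results that included this diet contrast. The opposite signs are therefore a description, and muscle as a source of the UCP3 signal was not tested. CKM, the muscle creatine kinase, differed by -0.44 (95% interval -2.40 to 1.52).

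**Figure D4:**
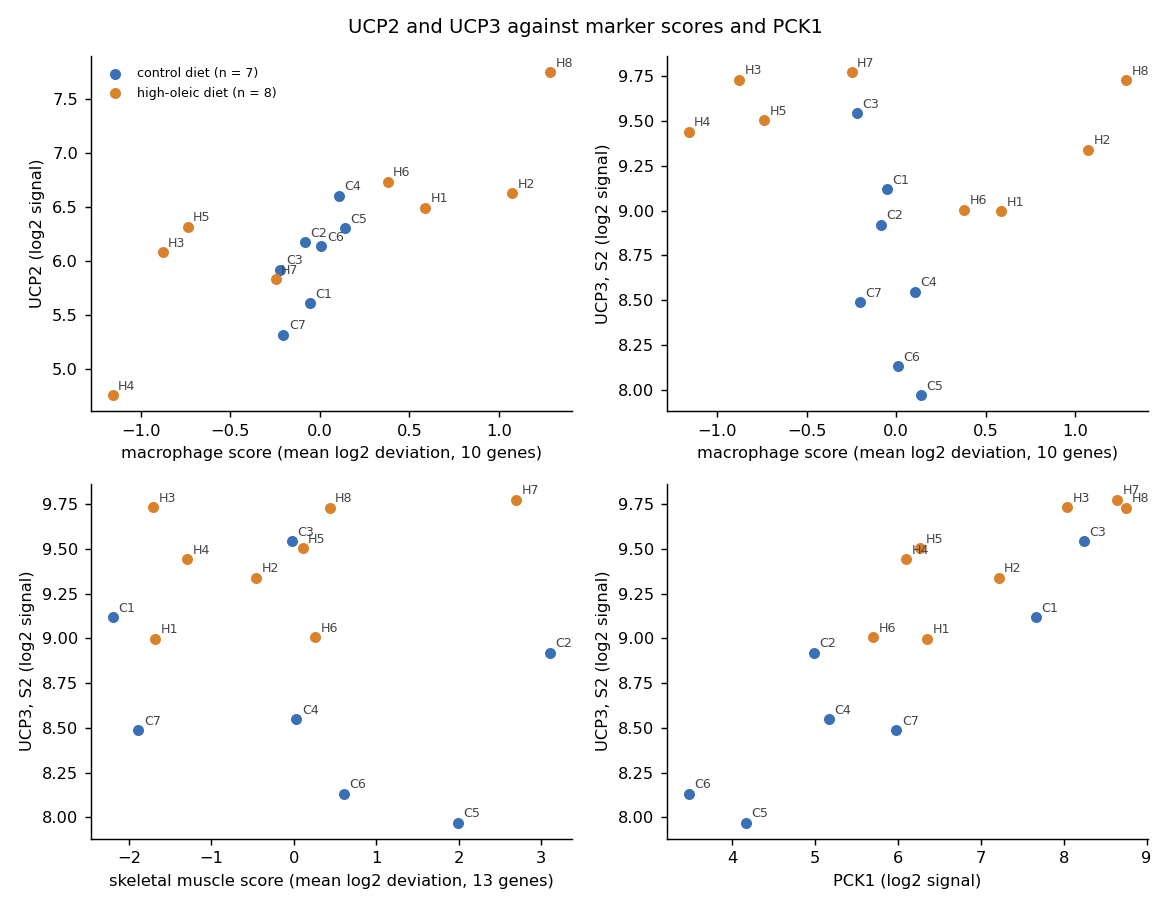
Log2 signal of UCP2 (top left) and of UCP3 on S2 (other panels) against the macrophage score, the skeletal muscle score (both in mean log2 deviations) and the log2 signal of PCK1; points are animals labelled C (control) or H (high-oleic). UCP2 rises with the macrophage score (r = 0.777) and UCP3 with PCK1, while UCP3 shows no clear trend with the macrophage score (r = -0.117) or the muscle score (r = -0.125).

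The lymphocyte and adipocyte scores passed the test with neither gene. For the 3 lymphocyte markers measured of 19, r was 0.0954 with UCP2 and 0.358 with UCP3 on S2 (permutation p = 0.733 and 0.190). The diets differed in sign. With UCP2 it was -0.684 within control and 0.378 within high-oleic animals (exact permutation p = 0.0873 and 0.341). With UCP3 it was 0.530 and -0.0605 (exact permutation p = 0.223 and 0.901). CD3E, 1 of these markers, had a low mean signal, at 2.51 in control and 2.81 in high-oleic animals. For the 4 adipocyte markers it was 0.506 with UCP2 (permutation p = 0.0519, adjusted p = 0.156) and 0.378 with UCP3 (permutation p = 0.166, adjusted p = 0.380). The adipocyte score stood 0.38 higher in high-oleic animals in means, and with diet means subtracted its r with UCP3 was 0.0399. The muscle score gave r = 0.273 with UCP2 (permutation p = 0.329). Within control animals it was 0.679 (exact permutation p = 0.0885, adjusted p = 0.204) and within high-oleic animals 0.163 (exact permutation p = 0.688). Without control animal 2 and high-oleic animal 7, the farthest in that score, it was 0.499. With diet means subtracted, all 13 muscle markers had a positive r with UCP2. Their median was 0.263, against 0.163 over all other named genes, and 0 reached 0.6.

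The spiked signal and UCP2 were both highest in high-oleic animal 8. Over 15 animals r was 0.572 (permutation p = 0.0292, adjusted p = 0.117), and without high-oleic animal 8 it was 0.249. With UCP3 on S2 the r of the spiked signal was 0.121 (permutation p = 0.670). The diets differed in sign: within control animals it was -0.754 (exact permutation p = 0.0534, adjusted p = 0.204) and within high-oleic animals 0.327 (exact permutation p = 0.416). With the spiked signal in the fit, a setting chosen after the values were seen, the diet difference was 0.79 for UCP3 on S2, 0.78 on S1 and 0.0997 for UCP2.

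Among 1258 other named genes, the one whose pattern over the animals was most like that of UCP3 was PCK1, the enzyme that commits oxaloacetate to glyceride-glycerol and glucose synthesis. With diet means subtracted, r between PCK1 and S2 was 0.862, or 0.805 to 0.906 when single animals were left out, and 0.890 and 0.812 within the control and high-oleic animals. PCK1 ran from 3.47 to 8.25 in control animals, with a median of 5.17, and from 5.70 to 8.75 in high-oleic animals, with a median of 6.78. Control animals 3 and 1 were the highest of their diet for PCK1 and for UCP3 on S2, and control animals 5 and 6 the lowest. High-oleic animals exceeded control animals in PCK1 by 1.47, which did not pass the test (limma adjusted p = 0.999).

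The next in likeness to UCP3 were MYO5B, a motor of vesicle traffic (r = 0.823), CD247, the zeta chain of the T cell receptor (r = 0.742), the kinase SGK2 (r = 0.685) and the steroid dehydrogenase HSD3B1 (r = 0.680). Measured against S1 in place of S2, MYO5B and PCK1 were again the top pair, at 0.865 and 0.829, while SGK2 fell to rank 23. The most opposite patterns were those of PPP1R3B, which targets a phosphatase to glycogen (r = -0.781), the cell cycle factor MYBL2 (r = -0.719) and the RNA-binding protein LARP4 (r = -0.676). For MYBL2 r was -0.894 in control and -0.123 in high-oleic animals. An r of 0.6 or more with UCP3 was reached by 15 genes, or 1.19%.

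For UCP2 the most similar were DNASE1L1, a relative of DNase I (r = 0.936), and ARPC1B, an actin-nucleating subunit abundant in blood cells (r = 0.927). EMP3, a membrane glycoprotein, stood at 0.902, SPI1 at 0.891 and SLC8B1, the mitochondrial sodium-calcium exchanger, at 0.885. Without high-oleic animal 8 these were 0.914, 0.881, 0.839, 0.839 and 0.809. The most opposite were the activin receptor ACVR2A (r = -0.835), the MYC antagonist MXI1 (r = -0.833) and KITLG, the ligand of the receptor KIT (r = -0.828). These correlations are over 15 animals and were picked as the extremes of 1258, so no p is given.

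Of the nuclear receptors and coregulators that act on uncoupling protein genes, 3 of 21 were measured and 0 were called. RXRG, the gamma retinoid X receptor and a partner of PPARs, had r = 0.606 with UCP3 and 0.00140 with UCP2, with diet means subtracted, and a diet difference of 1.17 (limma adjusted p = 0.315). RXRB differed by 0.14 (95% interval -0.43 to 0.71) and had r = 0.414 with UCP3. The coactivator NCOA2 differed by -0.68 (95% interval -1.17 to -0.19) and had r = -0.504 with UCP2 and -0.0738 with UCP3.

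Of 12 genes listed here as fasting-type PPAR targets, 6 were measured, 5 had higher and 1 lower mean signal on the high-oleic diet, and 0 were called. Their median difference was 0.40, against -0.03 over all 3255 probe sets, of which 46.8% were higher. With UCP3, 5 of the 6 had a positive r with diet means subtracted: PDK4, which restrains glucose oxidation, at 0.575, CPT1A, which carries fatty acids into mitochondria, at 0.527, and ANGPTL4, an inhibitor of lipoprotein lipase, at 0.488, with FBXO32 and PLIN2 at 0.236 and 0.0620. The lipoprotein receptor VLDLR was opposite, at -0.531. With UCP2 the same genes ran from -0.466 for PDK4 to 0.281 for PLIN2, a lipid droplet coat protein.

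On live weight, 5 of these 6 listed genes had a negative slope at fixed diet, as UCP3 did, and 0 were called. The median of the 6 was -0.47 per 10 kg against 0.04 over all probe sets. PDK4 had -1.46 (SE 0.35, limma adjusted p = 0.614) and CPT1A -0.50, while VLDLR had 0.74. As with UCP3, the negative slopes leaned on control animal 5: without it 2 of the 6 were negative, the median was 0.14 and PDK4 stood at -0.24. Of the 32 genes of fatty acid activation and oxidation, CPT1A and ACSL5 were measured. ACSL5, an acyl-CoA synthetase, differed by 0.14 between diets (95% interval -0.41 to 0.69) and had r = 0.763 with UCP2 and -0.194 with UCP3.

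Of 15 related mitochondrial carriers, 3 were measured and 0 were called. SLC25A14, also an uncoupling protein by family, differed by 0.10 (95% interval -0.40 to 0.60), and its r was 0.226 with UCP3. SLC25A30 differed by -0.01 (95% interval -0.51 to 0.49), with r = -0.672 with UCP2. The phosphate carrier SLC25A3 differed by 0.25 (95% interval -0.62 to 1.12). Its mean signal was low, at 2.93 in control and 3.18 in high-oleic animals, in a table that starts at 1.49.

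Of 23 antioxidant genes, 4 were measured, 3 had higher mean signal on the high-oleic diet and 0 were called. HMOX1, the inducible haem oxygenase, differed by 0.62 (95% interval -0.13 to 1.38) and GPX4, which clears lipid peroxides, by 0.32 (95% interval -0.33 to 0.97). Their r with UCP2 was 0.691 and 0.624, and with UCP3 0.0598 and 0.0187. GPX4 had a low mean signal, 2.50 in control and 2.82 in high-oleic animals, in a table that starts at 1.49. TXNRD1, a thioredoxin reductase, had r = 0.260 with UCP2 and -0.373 with UCP3. MT1A, also low at 2.67 and 2.48, had r = 0.126 with UCP2 and 0.242 with UCP3.

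**Figure D5:**
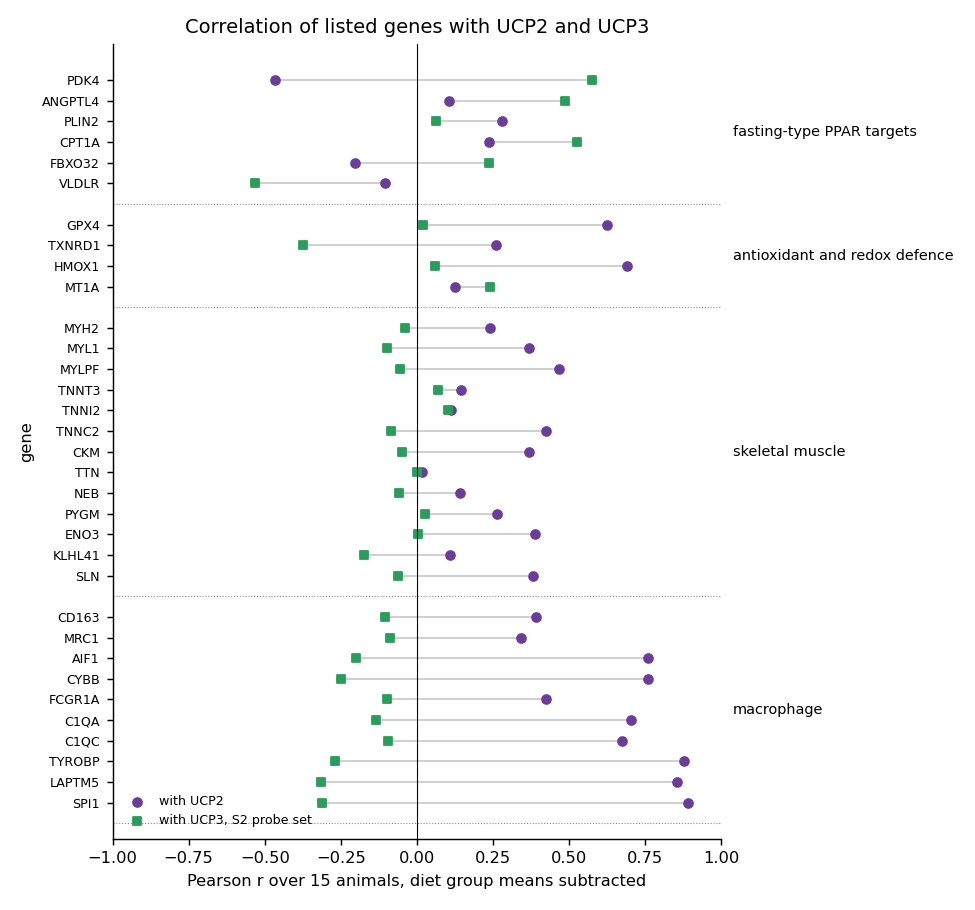
Pearson r over 15 animals, with diet group means subtracted, of each measured gene of 4 lists with UCP2 (circles) and with UCP3 on S2 (squares). Macrophage genes lie at 0.343 to 0.891 for UCP2 and below 0 for UCP3, and muscle genes lie near 0 for UCP3.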

How the data were processed

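Backfat expression was measured on 15 Affymetrix porcine arrays, 1 per animal, grouped by the diet in the sample titles. The authors deposited 1 table of log2 signals per probe set, not centred. GCOS and GCRMA are the tools that the submitters' processing notes name, and those notes give no settings. The log2 scale was read from the values (1.49 to 14.36). In each of the 3272 probe sets at least 3 arrays deviated about 1.5-fold or more from the row median, so adjusted p-values refer to variable probe sets. After 17 control probe sets were left out, 3255 were tested, of which 1455 had 1 gene symbol, 27 several and 1773 none.

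Differences and slopes were fitted with limma 3.58.1 in R 4.3.3 over all 3255, two-sided, with p-values adjusted by Benjamini-Hochberg and called under 0.05. Intervals are 95%. Correlations used 100000 permutations, or all orders within a diet, two-sided, adjusted over 12 relations, with Fisher intervals. Other correlations are descriptions. Of several probe sets per gene the one with the highest mean was used, S2 for UCP3. Named are the probe sets of both genes, the 5 most and 3 least similar genes to each, and members of fixed lists. Members and lists were chosen with earlier results of these data known. On simulated data for the diet comparison, with 3255 probe sets, limma recovered 50% of 100 changes of 1 log2 unit and 94% of 100 changes of 2. Both sizes were in the same simulated data, where 152 probe sets were called, against 0 in the real data. A lone change was not simulated, so these shares cannot be read as the chance of calling a single gene here. For the difference of slopes between diets, 31% of 100 changes of size 2 and 89% of 100 changes of size 4 were recovered. The alternatives were other normalizations, priors, weights, a filter, covariates, a weight window, a replicate block and leaving out animals. Figures used matplotlib 3.10.9.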

Additional observations from a re-analysis of the deposited data

Results flagged for a closer look

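Control animal 5 weighed 133 kg, while the other 6 control animals had a median of 114 kg. Its gap to the next heaviest, at 118 kg, was 0.714 of the group's range. It was the 1 such gap found in 18 checks of the UCP2 and UCP3 signals, live weight, scores and spiked signal within each diet, and chance gives about 1 in 20. That animal also had the lowest UCP3 signal of all 15, at 7.97 on S2 and 7.98 on S1.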

How the results depend on the processing

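The diet differences of UCP3 were positive under every alternative run, 0.65 to 0.91 on S2 and 0.69 to 0.90 on S1 with single animals left out. These runs reuse the animals through which UCP3 was picked, so the kept sign is a description and supports nothing. The diet difference of UCP2 was 0.11 to 0.54 over animals left out, 0.10 with array weights and -0.21 in animals of 109.5 to 118 kg. With the animal number as a replicate block the differences were 0.11 for UCP2, 0.73 on S1 and 0.72 on S2, and the block changed no call. Number 8 occurs only in the high-oleic group, so these equal the differences without high-oleic animal 8. That animal also had the lowest array weight, at 0.24. The sample titles give animal numbers and no pairing. Same-numbered deviations correlated between -0.161 and 0.296, and 2 of 7 control animals correlated best with their own number. Such correlations cannot exclude a pairing. Counts over all probe sets were 1 for diet with the spiked signal in the fit, 1 for live weight with no diet in the fit, 0 to 5 for live weight over animals left out (5 without control animal 2, 2 without high-oleic animal 7), and 0 to 5 for the difference of slopes (5 without high-oleic animal 1). None of these calls was UCP2 or UCP3. The UCP2 slope turned to 0.13 with the replicate block and 0.63 in animals of 109.5 to 118 kg, and over animals left out ran from -0.66 to 0.049. That of UCP3 on S1 ran from -0.38 to 0.13. The r of UCP2 and UCP3 was -0.139 with diet means subtracted and -0.181 to 0.198 over animals left out. Over animals left out, r with UCP2 was 0.669 to 0.836 for macrophages and -0.0337 to 0.218 for lymphocytes. With UCP3 it was -0.327 to 0.0675 for muscle and -0.126 to 0.196 for the spiked signal, which gave -0.113 with diet means subtracted. The cause of these turns was not tested. Depth does not apply to arrays, and 15 of them bound the precision.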

Other observations

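Neither gene followed the cells of vessel walls as a group. Of the 15 smooth muscle and pericyte markers 10 were measured, and with diet means subtracted their r ran from -0.521 to 0.324 with UCP2 and from -0.253 to 0.345 with UCP3 on S2. RGS5, a pericyte marker, was the lowest with UCP2. Of 11 endothelial markers 4 were measured, and ESAM, a junction protein of endothelium, had r = 0.549 with UCP3 and -0.0393 with UCP2. These are descriptions over 15 animals and were not tested.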
